A study of Caenorhabditis elegans with 2 samples.

Results

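In the late embryos of Caenorhabditis elegans examined here, 293 of the 29976 nuclear candidate regions of an ODD-2 ChIP-seq experiment had their summit inside or within 200 bp of a nuclear tRNA gene. These 293 regions are called tRNA regions. They were chosen by position alone, from the pooled candidate file of 30000 regions and the 612 nuclear genes that the Ensembl annotation of WBcel235 lists as tRNA genes, and no signal value entered the choice. They reached 302 of the 612 genes (49.3%, exact 95% binomial interval 45.3 to 53.4), since 22 regions lay within reach of 2 genes and 12 genes had more than 1 region. All intervals given here are exact binomial (Clopper-Pearson) intervals that cover counting error only, and regions are not replicates of the embryos. The share of genes that windows of this size would reach elsewhere in the genome was not computed.

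ODD-2 belongs to the Odd-skipped family of zinc-finger transcription factors. The samples form 1 group of 2 biological replicates: whole late embryos of hermaphrodites of strain OP405, genotype unc-119(tm4063) III; wgIs405, in which the integrated transgene wgIs405 expresses ODD-2 with GFP and FLAG at its C terminus. Chromatin was sonicated and precipitated with an antibody against GFP, so the measurement is of the tagged transgene product in all cells of the embryo at once, and the animals' age is given as unknown. Worms without the tag were not analysed here, and no other genotype, stage or treatment stands against this group. Read depth is unknown, because the files hold regions and signals and no read numbers. The signal is the authors' value for each region computed with a control file. A second set of 260 peaks, 237 of them nuclear, passed the authors' irreproducible discovery rate (IDR) step and is called IDR peaks. That step is meant to keep peaks that rank alike in replicates. Here the set held exactly the 260 pooled regions with the highest signal.

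Nuclear tRNA genes are short templates of RNA polymerase III. Their promoter lies inside the transcribed sequence, as an A box in the part that forms the D arm and a B box in the part that forms the T arm. The factor TFIIIC binds both boxes and brings TFIIIB to the DNA just upstream, and a short run of T ends transcription. Each tRNA carries 1 amino acid, which defines its isotype, and reads codons through its anticodon. Worm tRNA genes exist in many identical copies, are scattered over the chromosomes and often sit in introns of protein-coding genes.

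The 7 sequences that follow are the tRNA genes on which the comparisons of copies and of the B box turn, each given on the strand of the gene and read from the reference genome. Capitals mark the B box, searched as GTTCNANNC, or, in the last gene, the T-loop letters at the same place. The first 2 are alanine genes of families with a high share of IDR peaks, and the next 3 come from large families with lower shares. The sixth is the strongest region at a gene with no identical copy, and its sequence includes the intron of the tRNA. The seventh is a proline gene that lacks the B box letters as searched.
ZK622.t1, Ala, anticodon AGC: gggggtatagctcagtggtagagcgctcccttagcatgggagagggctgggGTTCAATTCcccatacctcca
F15G9.t1, Ala, anticodon TGC: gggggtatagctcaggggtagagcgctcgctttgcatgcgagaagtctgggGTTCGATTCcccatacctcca
T06H11.t2, Arg, anticodon ACG: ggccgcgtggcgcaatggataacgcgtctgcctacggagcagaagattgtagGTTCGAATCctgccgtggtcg
C04E7.t1, Leu, anticodon AAG: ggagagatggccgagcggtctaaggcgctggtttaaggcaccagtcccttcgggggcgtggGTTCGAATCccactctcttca
ZK899.t1, Pro, anticodon TGG: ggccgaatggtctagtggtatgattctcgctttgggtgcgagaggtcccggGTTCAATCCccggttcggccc
C04A11.t1, Leu, anticodon CAA: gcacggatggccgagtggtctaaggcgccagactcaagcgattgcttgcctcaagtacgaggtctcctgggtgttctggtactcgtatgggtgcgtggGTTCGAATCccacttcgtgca
C16B8.t2, Pro, anticodon AGG: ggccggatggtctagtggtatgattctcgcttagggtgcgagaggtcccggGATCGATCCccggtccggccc

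The window of 100 bp on each side of the summit at C04A11.t1 (chrX:13665546-13665746, ce11, plus strand) shows how such a region lies on its gene. Capitals mark the tRNA gene, which runs from 13665555 to 13665673 on the plus strand, and the summit at 13665646 falls within it.
C04A11.t1 window: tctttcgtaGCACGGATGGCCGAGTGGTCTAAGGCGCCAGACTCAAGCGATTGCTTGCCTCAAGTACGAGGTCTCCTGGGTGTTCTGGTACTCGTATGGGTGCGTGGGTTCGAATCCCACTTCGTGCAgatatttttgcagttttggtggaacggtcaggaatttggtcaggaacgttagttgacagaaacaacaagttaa

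The tRNA regions were concentrated among the strongest regions of the experiment. Of the 293, 78 were IDR peaks (26.6%, interval 21.6 to 32.1), against 0.791% of all nuclear candidate regions (237 of 29976). At the level of genes, 85 of the 612 tRNA genes (13.9%, interval 11.2 to 16.9) lay in reach of one, that is, at most 200 bp from its summit. The median pooled signal of the tRNA regions was 40.9 (quartiles 31.0 and 63.2, range 24.7 to 170.7), and that of all nuclear candidates was 30.6 (quartiles 27.2 and 35.5). The 260 pooled regions with the highest signal, mitochondrial ones included, were the 260 IDR peaks, so IDR membership and pooled signal are 1 measure here and not 2. The weakest tRNA region in the IDR set had a signal of 61.43 and the strongest outside it 61.39.

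Ranked by pooled signal, tRNA regions held 31 of the first 100 nuclear regions and 49 of the next 150 (32.7%). Their share was 4.8% in ranks 251 to 1000 and 1.28% in ranks 1001 to 5000. It was 0.411% in the lowest bin, ranks 20001 to 29976. The share was thus highest in the first 250 ranks, and the other tRNA regions were spread over the whole list.

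**Figure D1:**
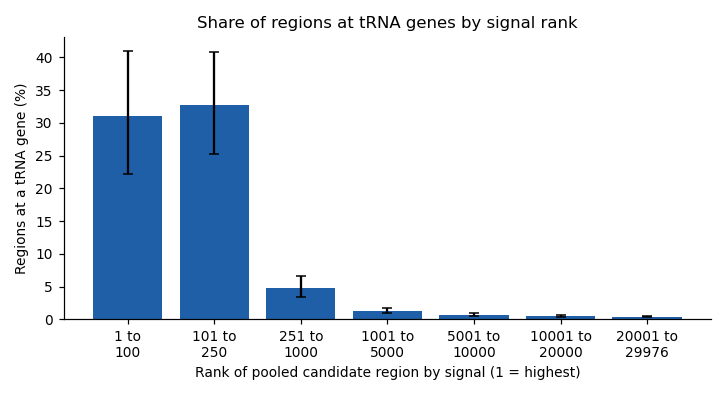
Share of nuclear pooled candidate regions that lie at a tRNA gene (y axis, percent) by rank of signal (x axis, rank 1 highest). Bars are shares and whiskers exact 95% binomial intervals for counting error; the share is 31% in the first 100 ranks, 32.7% in ranks 101 to 250 and under 5% in every later bin.

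The strongest tRNA region lay on sup-5, a tryptophan tRNA gene known for amber suppressor alleles, in an intron of fli-1, the flightless homolog (region III, 8678377 to 8678706). Its signal was 170.7 in the pooled file, 78.6 in replicate 1 and 94.0 in replicate 2, and it ranked 19 among all nuclear regions. The intergenic leucine gene C04A11.t1 followed with 169.2 pooled, 85.2 in replicate 1 and 94.2 in replicate 2. The threonine gene R01H5.t1, also intergenic on X (region 12563682 to 12564011), had 161.7 pooled, 73.5 in replicate 1 and 83.3 in replicate 2. All 3 summits lay inside the tRNA gene, and each was high in both replicates.

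The alanine gene F15G9.t1 in an intron of him-4, the hemicentin gene (region X, 9743504 to 9743833), had a pooled signal of 154.8, with 77.8 in replicate 1 and 78.3 in replicate 2, and its region also reached a neighbouring tRNA gene. The cysteine gene C37A2.t1, in an intron of the cyclin E gene cye-1, had 150.3, with 79.1 and 69.8. The arginine gene F28H6.t1 had 142.3, with 70.0 and 72.2. These 3 differed little between replicates, whereas the region at C28G1.t1, a glutamate gene, gave 116.9 pooled, 40.2 in replicate 1 and 75.5 in replicate 2. F29C4.t1, an arginine gene in an intron of the collagen gene col-99, gave 114.9 pooled, 43.0 in replicate 1 and 74.1 in replicate 2.

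The others among the 20 strongest lay at the isoleucine genes T21B4.t1 (138.7, in col-85) and C42D8.t1 (117.5), the serine gene ZC455.t1 (125.1), the asparagine gene F41D9.t3 (124.3), the glycine gene F17H10.t1 (120.0), the aspartate gene F38G1.t2 (119.7, in the FGF gene egl-17), the proline gene ZK899.t1 (117.1), the valine genes R04D3.t2 (115.6) and C05G6.t1 (106.6), the histidine gene C06G1.t1 (109.3), the initiator methionine gene T15B12.t1 (109.0) and the lysine gene C33G3.t2 (106.1). Together the 20 covered 17 isotypes. In 14 the summit lay inside the tRNA gene, 12 were in introns, 13 were on X and 19 had a counterpart in both replicates. The exception was C06G1.t1, with 57.1 in replicate 2 and no summit within 100 bp in replicate 1.

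All 20 standard isotypes had at least 1 gene with an IDR peak, and the single selenocysteine gene was not reached. The share of genes reached ran from 30% for histidine (6 of 20) to 76.9% for cysteine (10 of 13). The share with an IDR peak ran from 3.70% for glutamine (1 of 27) to 32.4% for alanine (11 of 34, at 10 IDR peaks). The interval for alanine, 17.4 to 50.5, lies above the 13.9% over all tRNA genes, but that for glutamine, 0.0937 to 19.0, contains it. The interval for cysteine genes reached, 46.2 to 95.0, contains the 49.3% over all genes. Over 20 isotypes a single interval that misses the overall value is a description, and no test was made. The strongest region of each remaining isotype was at R04A9.t1 for glutamine (85.3 pooled, 35.4 in replicate 1 and 46.3 in replicate 2), at T28B4.t1 for phenylalanine (87.3, 47.0 and 38.9) and at C02B4.t2 for tyrosine, in the nuclear receptor gene nhr-17 (102.6, 57.3 and 43.6). At genes of undetermined isotype the strongest was DY3.t2 (32.2, with 16.3 in replicate 1 and no counterpart in replicate 2).

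**Figure D2:**
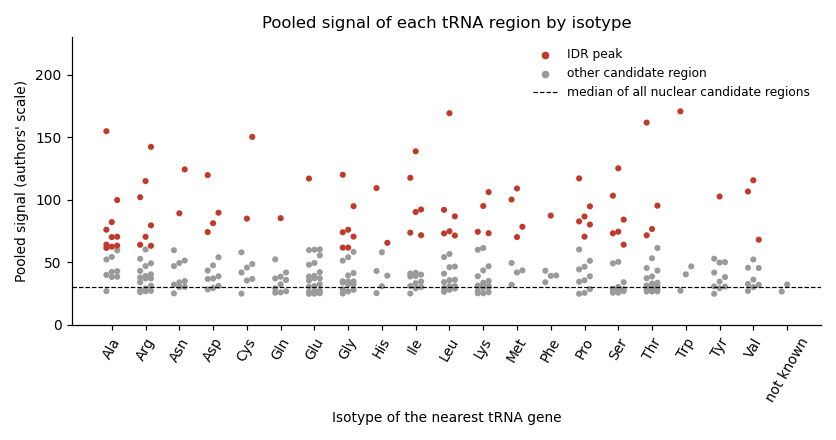
Pooled signal (y axis, the authors' scale) of each of the 293 tRNA regions by isotype of the nearest tRNA gene (x axis). Red points are IDR peaks and grey points other candidate regions; the dashed line is the median of all nuclear candidates, 30.6, and every isotype other than the undetermined one has both colours.

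Methionine genes come in 2 kinds, those for the initiator tRNA that starts every protein and those for the elongator tRNA. Of 10 initiator genes, told apart by the C before the anticodon, 5 were reached and 2 had an IDR peak, T15B12.t1 (109.0 pooled, 64.3 and 48.9 in replicates 1 and 2) and F22F1.t6 (100.1, with 60.1 and 43.2). Of 9 elongator genes 4 were reached and 2 had an IDR peak, the highest at 78.4. The counts are too few to set one kind apart from the other.

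Recovery in the replicates was more frequent than over all candidates. Both replicate files held a summit at most 100 bp away for 169 tRNA regions (57.7%, interval 51.8 to 63.4), against 30.1% of all nuclear candidates. Another 50 had one in replicate 1 only, 56 in replicate 2 only and 18 in neither. Recovery was similar for the 119 regions near snoRNA genes, with 53.8% found in both (interval 44.4 to 63.0). Of the 78 IDR peaks at tRNA genes 73 were found in both (93.6%), and of the 159 other nuclear IDR peaks 145 (91.2%). Of the 215 tRNA regions outside the IDR set 96 were found in both (44.7%, interval 37.9 to 51.6). The 5 IDR peaks at tRNA genes with no summit within 100 bp in a replicate were C06G1.t1, F57F5.t1 (90.2 pooled, 46.1 in replicate 2), C02D4.t1 in the tyramine receptor gene ser-2 (71.6, with 43.2) and F59C12.t3 (68.0, with 32.5), all unmatched in replicate 1, and F43C9.t1 (73.2, with 46.3 in replicate 1), unmatched in replicate 2. An unmatched peak does not mean that the gene was missed. Both replicates reached the genes C06G1.t1, F57F5.t1 and C02D4.t1 within 200 bp. A second pooled region at C06G1.t1 had 50.5 in replicate 1, and one at F43C9.t1 had 30.1 in replicate 2. The pooled file holds the reads of both replicates, so recovery in them is not an independent measurement of the pooled regions.

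Taken alone, each replicate gave a like picture. Replicate 1 had 264 tRNA regions (0.881% of its nuclear candidates, median signal 21.9 against 16.8 over all) and replicate 2 had 279 (0.931%, 21.3 against 16.1). Among the 237 strongest nuclear regions of each file, 70 in replicate 1 and 69 in replicate 2 were at tRNA genes. Replicate 1 reached 281 tRNA genes and replicate 2 reached 284. The 217 genes reached in both are 77.2% of the first and 76.4% of the second. With the 237 strongest regions only, 77 and 74 genes were reached, and the 52 shared are 67.5% and 70.3%.

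Across the 169 tRNA regions found in both files, the Spearman correlation of the 2 replicate signals was 0.679. It was 0.456 within the 73 IDR peaks and 0.165 within the 96 others, and 0.145 over the 9020 nuclear candidates found in both. The sets most like these had higher values. The 64 regions near snoRNA genes had 0.797, against 0.679 for the tRNA regions. The 145 other nuclear IDR peaks found in both had 0.652, against 0.456 for those at tRNA genes. The points share the control used for the signal and the local sequence, and each set is cut by a pooled signal to which both replicates contribute. With each signal divided by the median of its own file (16.8 in replicate 1 and 16.1 in replicate 2), the ratio of replicate 1 to replicate 2 had a median of 0.981 and ran from 0.340 to 2.69. It was above 1 in 82 regions and below 1 in 87, and beyond 2-fold in 10, of which 5 were IDR peaks. With the signals as deposited, the median was 1.02, on the other side of 1. The largest ratio in an IDR peak was at F32B4.t1, a cysteine gene, with a deposited signal of 62.9 in replicate 1 and 23.1 in replicate 2.

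**Figure D3:**
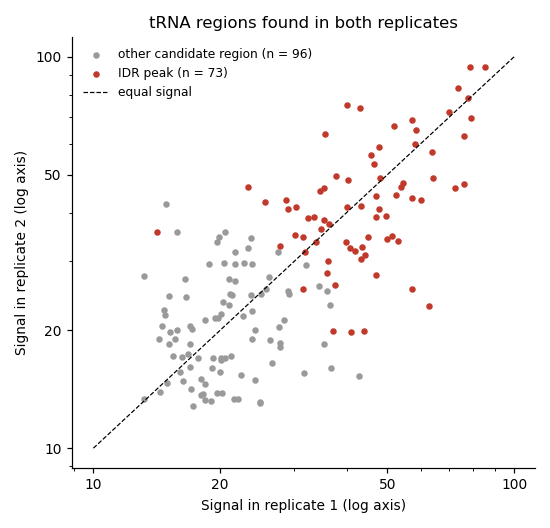
Signal in replicate 1 (x axis, log scale) and replicate 2 (y axis, log scale) of the 169 tRNA regions found in both files. Red points are the 73 IDR peaks, grey points the 96 others and the dashed line equal signal. The red points lie up and to the right of most grey ones. Ratios of deposited signals, replicate 1 to replicate 2, run from 0.353 to 2.80.

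Near the IDR limit the values ran together. The 5 weakest IDR peaks at tRNA genes were F14B4.t1 (63.2 pooled), T18D3.t1 (62.4), F10C1.t1 (61.7), F56C3.t1 (61.7) and Y65A5A.t1 (61.4). The last had 14.1 in replicate 1 and 35.7 in replicate 2. The 5 strongest regions outside the set were ZK563.t1 (61.4), M01E5.t1 (61.4), Y69A2AR.t2 (60.3), F41D9.t1 (60.2) and W09D6.t2 (60.2). ZK563.t1 had 40.8 in replicate 1 and no counterpart in replicate 2, and M01E5.t1 had 36.4 in replicate 2 and none in replicate 1. The other 3 were found in both replicates.

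Most summits lay on or close to the tRNA gene. In 106 of the 293 regions (36.2%, interval 30.7 to 42.0) the summit was inside the gene, whose median length is 72 bp, and in 210 (71.7%) it was inside or within 50 bp. Among the IDR peaks the counts were 41 of 78 (52.6%, interval 40.9 to 64.0) and 70 of 78. Among the others they were 65 of 215 (30.2%, interval 24.2 to 36.8) and 140. Of the summits outside, 100 were upstream and 87 downstream of the gene. The median offset from the 5′ end of the gene was 27 bp downstream (quartiles −21 and 89), and 21.5 bp in the IDR peaks.

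Signal was lower at regions farther from the gene. IDR peaks were 38.7% of the 106 regions with a summit inside, 27.9% of the 104 at 1 to 50 bp, 11.9% of the 42 at 51 to 100 bp and 12.5% of the 24 at 101 to 150 bp. The 17 regions just inside the limit, at 151 to 200 bp, held no IDR peak and had a median signal of 29.5. The 2 just outside, at 201 to 250 bp, had a median of 26.6, and no IDR peak was met again before the bin of 401 to 500 bp, with 1 of 27. The median pooled signal was 50.7 inside the gene and 45.4 at 1 to 50 bp.

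Counted over all 612 tRNA genes, 21.9 summits per 100 genes fell in the 100 bp around the gene centre. The next bins held 11.8 upstream and 10.1 downstream. From 500 bp to 2 kb away the bins held 1.96 to 4.90, with a median of 3.27. Around the 209 annotated tRNA pseudogenes the central bin held 1.91, and the bins from 500 bp outward 0.478 to 5.74, so there was no comparable peak at the centre of pseudogenes.

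**Figure D4:**
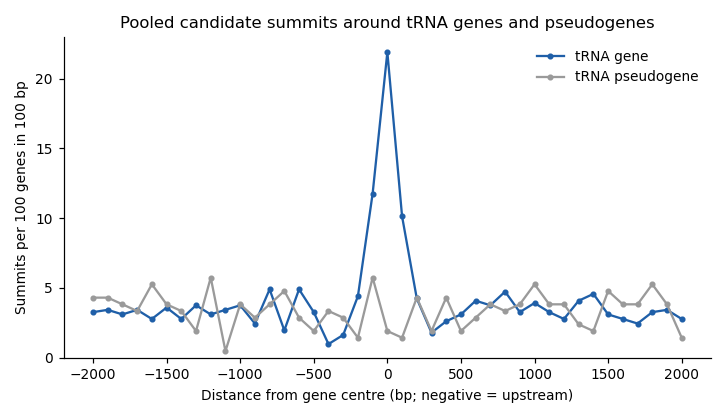
Pooled candidate summits per 100 genes in bins of 100 bp (y axis) by distance from the gene centre (x axis, bp, negative upstream), for 612 tRNA genes (blue) and 209 tRNA pseudogenes (grey). The blue line reaches 21.9 at the centre, while the grey line is at 1.91 there.

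Most tRNA genes held the B box letters as searched, and genes with and without these letters were reached in shares whose intervals overlap. The motif GTTCNANNC, 9 bases with 3 of them free, was found on the gene's strand in 587 of 612 tRNA genes (95.9%) and in 165 of 209 pseudogenes (78.9%). In the window of 100 bp to either side of the summit, searched on both strands, it was in 71.3% of the tRNA regions, 84.6% of their IDR peaks, 28.6% of the 119 regions near snoRNA genes and 6.62% of the 29683 other nuclear candidates. Since tRNA regions were chosen for lying at tRNA genes, most of which hold the letters, a high share in their windows follows from that choice. The summits of their IDR peaks also lay nearer to the gene, which was not taken into account. A match describes the letters and is not a bound site. Genes with the letters were reached in 293 of 587 cases (49.9%, interval 45.8 to 54.0) and had an IDR peak in 81 (13.8%). The 25 without were reached in 9 (36.0%, interval 18 to 57.5), with an IDR peak at 4.

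Those 25 include the 10 initiator methionine genes, whose T-loop letters at that place are GATCGAAAC, and 5 proline genes with GATCGATCC. Both differ from the searched letters only at base 2, so the 25 are not shown to lack a B box. Of the 10 initiator genes 5 were reached and 2 had an IDR peak. Of the 5 proline genes 3 were reached, and C16B8.t2 and C16B8.t3 shared 1 IDR peak (80.1 pooled, 41.9 in replicate 1 and 31.9 in replicate 2). These 2 kinds made up most of the 9 reached genes of the 25 and all 4 with an IDR peak. Pseudogenes with the B box letters were reached in 27 of 165 cases (16.4%, interval 11.1 to 22.9), and 1 had an IDR peak. Those without were reached in 2 of 44, and 1 had an IDR peak. A run of at least 4 T within 30 bp downstream, the form of a polymerase III terminator, was present at 605 of the 612 tRNA genes, so it could not be used to divide them.

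Identical copies differed in whether a region was called at them. The 612 genes have 200 different sequences, and 469 genes share theirs with at least 1 other gene. Reads that fall wholly within identical copies cannot be placed by sequence, and how the authors treated such reads is not given in the sources used here, so the signal at a single copy is uncertain. Each of the 25 families of 8 or more identical genes, 361 genes in all, had both reached and unreached members, and 23 had a member with an IDR peak. In no family did every member have an IDR peak. A peak within reach of 2 genes counts for both. In the family of 20 glutamate genes with anticodon CTC, the only member with an IDR peak shared it with the glycine gene M02F4.t1, which lay nearer.

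The 10 identical tryptophan genes give an example. Of them 4 were reached: sup-5 with 170.7, sup-24 with 46.7 (22.7 in replicate 1 and 29.7 in replicate 2), sup-7 with 40.3 (27.6 and 20.4) and rtw-6 with 27.2 (no counterpart in replicate 1 and 23.2 in replicate 2). The other 6 copies had no candidate summit within 200 bp. The range among these copies was thus from no region to the strongest tRNA region of all.

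Among the families of 8 or more genes, the 2 alanine families shown above had the highest shares of genes with an IDR peak. Of the 15 genes identical to ZK622.t1 (99.8 pooled, 45.8 and 56.2 in the replicates) 10 were reached and 6 had an IDR peak. Of the 8 identical to F15G9.t1 6 were reached and 4 had an IDR peak. The peak at F15G9.t1 also reached F15G9.t2, a gene identical to ZK622.t1, so it counts in both families. Of the 10 arginine genes identical to T06H11.t2 (79.5 pooled), all on X, 7 were reached and 2 had an IDR peak. Those 2, T06H11.t2 and T06H11.t3, shared 1 peak. Of the 24 proline genes identical to ZK899.t1, 12 were reached and 3 had an IDR peak. The 9 leucine genes identical to C04E7.t1, also all on X, had 2 reached genes and no IDR peak. C04E7.t1 itself had 54.2 pooled, 35.4 in replicate 1 and 18.5 in replicate 2. The only other such family without an IDR peak was that of 12 valine genes with anticodon AAC, of which 6 were reached, the highest at 52.2.

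The 143 genes with no identical copy were reached less often, 55 (38.5%, interval 30.5 to 47.0) with 13 IDR genes (9.09%, interval 4.93 to 15), than the 469 with 1 or more copies, 247 (52.7%, interval 48.0 to 57.3) with 72 (15.4%, interval 12.2 to 18.9). The intervals for reached genes do not overlap and those for IDR genes do. Among copied genes the share with an IDR peak was 19.0% for 2 to 8 copies (interval 12.3 to 27.3), 15.7% for 9 to 15 and 12.2% for 16 or more (interval 7.49 to 18.4), and these intervals overlap. The unique gene with the strongest region was C04A11.t1, whose summit window is printed above. Genes with another tRNA gene within 1 kb were reached in 94 of 236 cases (39.8%) and had an IDR peak in 21 (8.90%), and more isolated genes in 208 of 376 (55.3%) and 64 (17.0%). The 29 tRNA genes with an intron of their own were reached in 16 cases and had an IDR peak in 5.

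X carries 276 of the 612 tRNA genes (45.1%), and it carried 133 of the 293 tRNA regions (45.4%, interval 39.6 to 51.3), so regions were divided as the genes are. Among the IDR peaks at tRNA genes 46 of 78 were on X (59.0%, interval 47.3 to 70.0), and among the other tRNA regions 87 of 215 (40.5%, interval 33.8 to 47.4). Over all nuclear candidates the share on X was 17.7%, and over all nuclear IDR peaks 27.8%. Seen per gene, 18.5% of tRNA genes on X had an IDR peak (51 of 276, interval 14.1 to 23.6) and 10.1% of those on the autosomes (34 of 336, interval 7.11 to 13.9). The share of reached genes was close, 50.7% on X and 48.2% on the autosomes. Among the autosomes the share with an IDR peak ran from 6.41% on V (5 of 78) to 14.1% on III (9 of 64).

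Intronic and intergenic tRNA genes were reached in shares whose intervals overlap. Introns of protein-coding genes hold 283 of the 612 tRNA genes (46.2%), 128 of the tRNA regions (43.7%, interval 37.9 to 49.6) and 35 of the 78 IDR peaks (44.9%). Intronic genes were reached in 46.6% of cases (interval 40.7 to 52.6) and had an IDR peak in 13.1%, and intergenic genes in 51.1% (interval 45.5 to 56.7) and 14.7%. The 128 intronic regions lay in 117 different host genes. Intronic genes on the strand of the host had an IDR peak in 18 of 161 cases (11.2%, interval 6.76 to 17.1), and those on the opposite strand in 19 of 122 (15.6%, interval 9.64 to 23.2). The share with an IDR peak was higher on X than on the autosomes within both places, but with overlapping intervals. For intronic genes it was 18.9% on X (interval 11.6 to 28.3) and 10.1% on the autosomes (interval 6.20 to 15.3). For intergenic ones it was 17.8% (interval 12.5 to 24.2) and 10.8% (interval 6.17 to 17.2).

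The tRNA regions were not especially near protein-coding promoters, taken to reach from 1000 bp before to 200 bp after a 5′ end. Of the tRNA regions 21.5% overlapped that span by their summit, against 24.6% of all nuclear candidates. Of the IDR peaks at tRNA genes 16.7% did, against 57.9% of the other 159 nuclear IDR peaks. The median GC content within 100 bp of the summit was 43.8% in tRNA regions and 46.3% in their IDR peaks, against 34.3% over all nuclear candidates. It was also 42.8% in the regions near snoRNA genes and 42.8% in the other nuclear IDR peaks. The part of GC content in the signal was not tested.

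Other short RNA genes were reached to different degrees. No share expected for windows of this size elsewhere in the genome was computed, so a share reached is not by itself shown to exceed background. Median gene length differed by class, at 72 bp for tRNA, 95 bp for miRNA, 109 bp for snRNA and 130 bp for snoRNA genes. Of 346 snoRNA genes, which guide RNA modification, 117 were reached (33.8%, interval 28.8 to 39.1) and 37 had an IDR peak (10.7%, interval 7.64 to 14.4). The 119 regions near snoRNA genes had a median signal of 35.9, and 36 were IDR peaks (30.3%, interval 22.2 to 39.3), so the share in the IDR set was within counting error of that of the tRNA regions. Of 261 miRNA genes 49 were reached (18.8%) and 4 had an IDR peak, and of 129 snRNA genes, a class that holds both polymerase II and III templates, 19 (14.7%) and 2. The 7262 regions at protein-coding promoters away from short RNA genes had a median signal of 31.1, and 82 (1.13%) were IDR peaks. The tRNA pseudogenes were reached in 29 of 209 cases (13.9%, interval 9.49 to 19.3), with an IDR peak at 2 (0.957%). The bin of 100 bp around their centre held 1.91 summits per 100 pseudogenes, below the median of 3.83 in the bins from 500 bp outward.

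**Figure D5:**
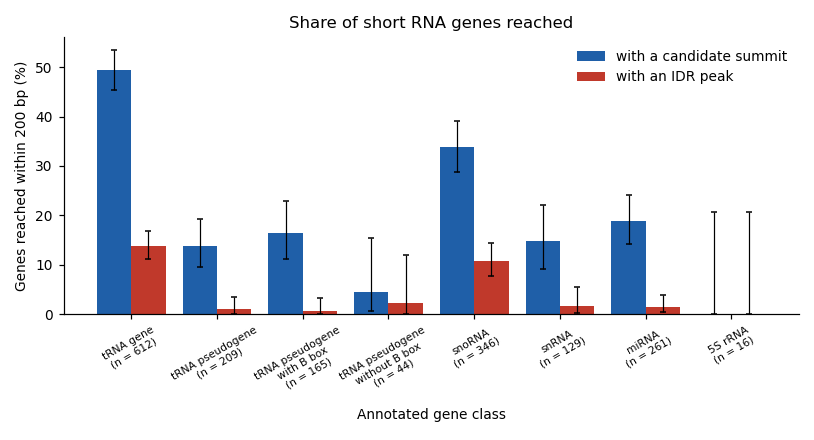
Share of genes (y axis, percent) of each annotated class (x axis) with a pooled candidate summit (blue) or an IDR peak (red) inside or within 200 bp; whiskers are exact 95% binomial intervals for counting error. tRNA genes stand highest at 49.3% and 13.9%, snoRNA genes follow at 33.8% and 10.7%, and tRNA pseudogenes are at 13.9% and 0.957%.

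Other polymerase III templates were counted as such only for the 5S rRNA genes and rpr-1. None of the 16 annotated 5S rRNA genes was reached (0%, upper limit of the interval 20.6%), and how reads were placed in that repeated array is not given. The gene rpr-1, the RNA of ribonuclease P, was reached by 1 region outside the IDR set.

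Among 12 protein-coding genes for the polymerase III machinery 6 had a candidate summit at the promoter and 1 an IDR peak. Over all 19973 nuclear protein-coding genes the shares were 37.6% (7510 genes) and 0.776% (155 genes), and 12 genes are too few to be set apart from these. The IDR peak was at rpac-19 (99.3), which encodes a subunit shared by RNA polymerases I and III. The others reached were mafr-1 (51.2), the homolog of the polymerase III repressor Maf1, tftc-3 (41.6) and tftc-5 (25.3), subunits of TFIIIC, and rpc-2 (27.6) and rpac-40 (26.9), polymerase subunits. None was found at brf-1 and tbp-1, which encode parts of TFIIIB, or at rpc-1, rpc-11, rpc-25 and tftc-1. No tRNA region lay within 20 kb of odd-2 itself, and none reached 3 or more tRNA genes.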

How the data were processed

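ChIP-seq libraries of 2 biological replicates (1 group) were analysed. Each deposited peak file gives a signal per region, which the authors computed with a control file, per the deposited file list. The names and versions of the aligner and peak caller are not stated in the labels or file list. The optimal IDR set was derived from both replicate candidate files and the pooled one, per the same list. Signals of different files are not on 1 scale. Read depth is unknown. Only build ce11 (WBcel235, 1-based) was used. The number of sample columns left unused was 0.

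Genes came from Ensembl release 115 and isotypes from RefSeq (612 of 612 tRNA genes matched, with the same bounds). Sequences were read from the RefSeq assembly WBcel235. The anticodon was read in 594 genes, from a stem of 5 pairs (at least 4 paired) around a loop of 7 bases. A region belongs to its nearest tRNA gene, and a gene is reached by any summit within 200 bp. Replicate summits within 100 bp count as the same. IDR membership is by identical bounds. Python 3.11.15, pandas 2.3.3, numpy 2.4.6, scipy 1.17.1, Biopython 1.88 and matplotlib 3.10.9 were used. Placement was tested on simulated data, with 114 of 114 summits placed right. No test over regions was made.

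The regions and lists were chosen with earlier results of these data known. Named were the genes at the 20 strongest tRNA regions, the strongest of each isotype, and the 5 strongest outside and 5 weakest inside the IDR set. IDR peaks without a counterpart in a replicate, and regions reaching 3 or more genes or within 20 kb of odd-2, were also to be named. The Met, Trp, Pro and Leu genes used as examples of families, F32B4.t1, the pseudogenes and the groupings by copies, neighbours, host strand and T run were chosen after their values were seen. U6 genes are not named as such in the annotation and were not counted. Alternatives were other distances, each replicate alone, genes without identical copies, RefSeq genes, overlap with IDR peaks, the stronger IDR peaks and other replicate matches.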

Additional observations from a re-analysis of the deposited data

How the results depend on the processing

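Of 74 recomputed values 48 stayed within the limits set for calling them unchanged and 26 moved. The median ratio of replicate 1 to replicate 2 signal was 0.981 with each file divided by its median and 1.02 as deposited, on the other side of 1. With the summit inside the gene, there were 106 tRNA regions, 17.3% of genes were reached, 38.7% of regions were IDR peaks, 6.70% of genes had one, the signal was 1.66 times the median of all nuclear candidates (1.34 in the report's setting) and 71.7% were found in both replicates. At 100 bp, 42.3% of genes were reached and 42.1% of summits were inside. At 500 bp, 58.7% were reached, the signal ratio was 1.26 and 30.6% of summits were inside. A narrower window holds fewer regions and genes by construction. The 106 summits inside are the same at 100 bp and 500 bp, so the share inside changed only with the number of regions. The cause of the other shifts was not tested. With the 143 genes that have no identical copy, there were 55 regions, 38.5% of genes were reached, 9.09% had an IDR peak, the signal ratio was 1.20, 49.1% were in both replicates, 36.4% were in introns and 25.5% of summits were inside. The cause was not tested. With the stronger 130 IDR peaks, 11.6% of regions and 6.05% of genes were in the set, which holds fewer peaks. Replicate matches within 50 bp, within 200 bp or by overlap gave 44.4%, 68.6% and 73.0% for tRNA regions, and 22.5%, 38.1% and 41.5% for all nuclear candidates, the last 3 added after seeing the data. Each replicate alone gave 264 to 279 regions, 45.9% to 46.4% of genes reached, 24.7% to 26.5% of regions and 12.1% to 12.6% of genes among the strongest, a signal ratio of 1.31 to 1.32, 45.5% to 47.3% on X, 44.7% to 45.9% in introns and 35.1% to 35.2% inside. RefSeq genes gave the same values. No paired analysis was possible because there is 1 group. Limits are the unknown read depth, the lack of an untagged library here, 2 replicates and reads shared by identical genes.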
